A study of Mus musculus with 6 samples.

Results

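The 10 secreted proteins examined here are ones with which the colon epithelium limits contact between bacteria and tissue, and they were followed as mRNA: *Ang4*, *Retnlb*, *Lypd8*, *Mptx1*, *Itln1*, *Lyz1*, *Lyz2*, *Slpi*, *Wfdc2* and *Pglyrp1*. These 10 genes were taken by name from the 52550 genes listed, as secreted defence genes outside the Reg lectin family. The rule used no level of theirs, but the list was drawn up with earlier results of these data known. RNA-seq was available for 6 samples of colon epithelium from male C57BL/6 mice, 3 Zfp90fl/fl and 3 Zfp90ΔIEC, all after azoxymethane and dextran sulfate sodium (AOM-DSS), a carcinogen followed by a compound that injures the colon lining. In Zfp90ΔIEC mice a Cre recombinase driven by the villin promoter removes floxed *Zfp90*, a gene for a zinc finger protein, from intestinal epithelial cells, and the Zfp90fl/fl controls carry the floxed allele without the deletion. All mice were 6 to 8 weeks old at the start and received 10 mg/kg AOM, then 3 cycles of 7 days of 2% DSS and 14 days of water, until day 80, as the labels give it. The study's methods give another age and another DSS concentration. The labels do not state which samples came from separate mice, so p-values measure the spread between these samples. Mice of each genotype were kept apart after weaning, so cage and genotype cannot be told apart.

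The colon is covered by mucus and by proteins that bind, cut or aggregate microbes before these reach the cells. Goblet cells, absorptive colonocytes and crypt secretory cells make most of them, and leukocytes below and between the epithelial cells share several, such as lysozyme and peptidoglycan recognition protein. Some are made constantly, whereas others are induced by type 2 cytokines, by the IL-17 and IL-22 axis or by bacterial contact. *Ang4*, *Retnlb* and *Itln1* are known as products of goblet, Paneth or other secretory cells, *Lypd8* of colonocytes, and lysozyme of Paneth cells (*Lyz1*) and of macrophages (*Lyz2*).

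*Zfp90* itself read 0.630, 0.490 and 0.569 FPKM in the 3 Zfp90fl/fl samples against 0.0846, 0.195 and 0.166 FPKM in the 3 Zfp90ΔIEC samples, in the order of replicates that all later triplets keep. FPKM is the number of fragments per kilobase of transcript per M fragments, so it can be compared between genes. For Zfp90ΔIEC replicates 2 and 3, the genotype field of the labels names another gene number, and their titles placed them in the group. Depth is not stated, and the step between low values gave rough estimates of 25.9 to 28.8 M fragments. Between 53.4% and 57.7% of the low values used lay within 10% of a whole step. Epithelial markers were high in all samples, with a sum over 6 genes of 5394 to 6101 FPKM in Zfp90fl/fl and 5265 to 5748 FPKM in Zfp90ΔIEC.

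The genotype difference was tested for the 11564 genes that reached 1 FPKM in 3 or more samples, by limma on log2(FPKM + 1) with Benjamini-Hochberg adjustment. Differences are given as Zfp90ΔIEC minus Zfp90fl/fl on that scale, which understates the change of low genes. Of the 10 genes, 8 passed the filter, and *Itln1* and *Lyz1* lay below it. None of the 8 passed an adjusted p of 0.05 (0 of 8), beside 23 of all 11564 genes (0.199%), of which 15 were lower (0.13%) and 8 higher (0.0692%) in Zfp90ΔIEC. At an unadjusted p under 0.05, 4 of the 8 were lower in Zfp90ΔIEC, namely *Slpi*, *Retnlb*, *Lyz2* and *Pglyrp1*, and 0 were higher, beside 8.09% and 6.56% of all genes tested. The genotypes did not overlap for 3 of the 8, all lower in Zfp90ΔIEC, beside 12.6% of all genes lower and 8.73% higher without overlap. The median difference of the 8 was -0.31, beside -0.02 over all genes tested, and 7 of the 8 lay below 0, beside 57.2% of all genes. *Slpi* is part of these counts only because of Zfp90fl/fl, since all 3 Zfp90ΔIEC samples lay under 1 FPKM.

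**Figure D1:**
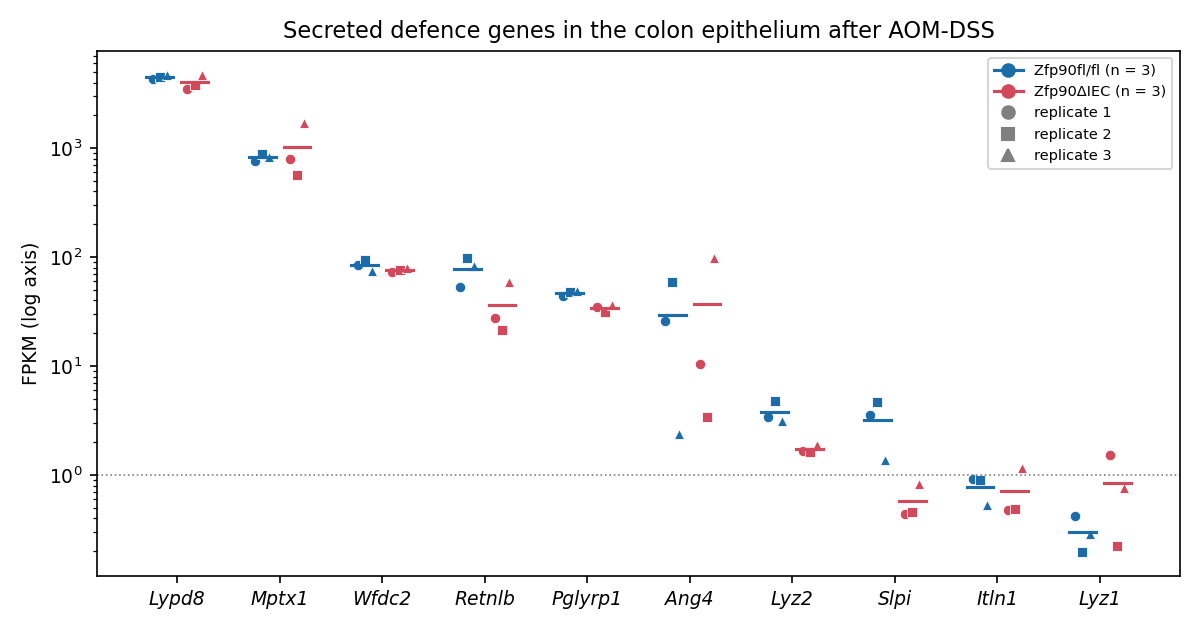
FPKM of the 10 genes on a log axis in each of the 6 samples, with symbols for replicates, colours for genotype, horizontal bars for genotype means and a dotted line at 1 FPKM, the filter. *Lypd8* and *Mptx1* lie far above the others, the *Ang4* points spread from 2.40 to 97.4 FPKM, and the genotypes separate for *Lyz2*, *Slpi* and *Pglyrp1*.

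*Lypd8* was the highest in every sample and *Mptx1* the next. *Wfdc2*, *Retnlb*, *Pglyrp1* and *Ang4* followed with ranges that overlapped with at least one neighbour, then *Lyz2* and *Slpi*, which overlapped, and *Itln1* and *Lyz1*, which overlapped too. In Zfp90ΔIEC, the mean of *Slpi* (0.572 FPKM) lay below those of *Itln1* (0.710 FPKM) and *Lyz1* (0.840 FPKM), so the order of these last genes differs by genotype. Summed, the 10 genes took 4469 to 6683 FPKM, or 1.02% to 1.5% of the total of a sample, and *Lypd8* alone made up 70.5% to 84.4% of that sum.

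*Lypd8* encodes a GPI-anchored, highly glycosylated protein that is shed into the lumen, where it binds flagellated bacteria and keeps them off the epithelium. The gene (ENSMUSG00000013643) lies on the plus strand at chr11:58379043-58390728 (GRCm38). It was measured at 4334, 4455 and 4731 FPKM in Zfp90fl/fl replicates 1 to 3 and at 3526, 3818 and 4712 FPKM in Zfp90ΔIEC replicates 1 to 3. The first 2 Zfp90ΔIEC samples lay below every control, and the third lay inside the control range. Summed, 7 absorptive colonocyte markers were higher in every Zfp90ΔIEC sample, at 8051 to 12206 FPKM beside 5360 to 7181 FPKM in Zfp90fl/fl. *Car1* dominated this sum, at 6349 to 10059 FPKM in Zfp90ΔIEC and 4033 to 5628 FPKM in Zfp90fl/fl. Of the 7 markers, 4 were higher and 0 lower without overlap, beside 8.73% and 12.6% of all genes tested. *Ceacam20* was lower in mean. The part of these markers in the level of *Lypd8* was not tested. *Lypd8* ranked between 13 and 16 among all genes of each sample. Its difference was -0.18 (SE 0.111, 95% interval -0.44 to 0.08, limma adjusted p = 0.525), which leaves room for a modest fall and for a small rise.

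*Mptx1* encodes mucosal pentraxin 1, a secreted pentraxin of the colon related to C-reactive protein. The gene (ENSMUSG00000026531) lies at chr1:174330518-174332873 on the plus strand. Its levels were 770, 885 and 833 FPKM in Zfp90fl/fl and 794, 571 and 1695 FPKM in Zfp90ΔIEC. The controls stayed close together, whereas the Zfp90ΔIEC samples held both the lowest and the highest value of the 6. The difference was 0.15 (SE 0.358, adjusted p = 0.886). Without Zfp90ΔIEC replicate 3 it was -0.30, so that the direction rested on that sample. The related *Mptx2*, *Crp* and *Apcs* were at or near 0 in all samples, with no value above 0.0341 FPKM, and 10.1% of the 75-base windows of the *Mptx1* transcript also occur in *Mptx2*.

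*Ang4* encodes angiogenin 4, a ribonuclease with bactericidal activity that secretory cells release into the lumen. The gene (ENSMUSG00000060615) lies at chr14:51763878-51773590 on the minus strand, in the angiogenin cluster. It was measured at 26.2, 59.0 and 2.40 FPKM in Zfp90fl/fl replicates 1 to 3 and at 10.3, 3.43 and 97.4 FPKM in Zfp90ΔIEC replicates 1 to 3. Each genotype thus held samples with very low and with very high *Ang4*, and the highest value was 40.6-fold above the lowest. The within-genotype SD on the log2 scale was 2.22, the second largest of the 11564 genes tested, beside a median of 0.10 and a 95th percentile of 0.322. The largest belonged to *Gm47308*, which was listed at 8.5e-05 FPKM in a single sample and between 43.6 and 53.6 FPKM in the other 5, whereas *Ang4* was detected in every sample with an estimated 48.0 to 1931 fragments. The genotype difference was -0.05 with a 95% interval of -3.31 to 3.20 (SE 1.38, adjusted p = 0.989), so that at this spread neither a large rise nor a large fall could be detected.

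The spread of *Ang4* was not shared by its neighbours in the cluster. *Ang*, which encodes angiogenin, ranged from 13.3 to 18 FPKM and *Rnase4*, a secreted ribonuclease, from 47.4 to 62.8 FPKM over the 6 samples, with adjusted p of 0.639 and 0.956 for genotype. *Ang2*, *Ang5* and *Ang6* were listed at 0 in all samples, and 0.787% of the 75-base windows of *Ang4* occur in another gene. The 250 bases before the RefSeq start of *Ang4* (GRCm38, chr14:51773591-51773840, minus strand) are shown because *Ang4* varied most. They hold a single match to the STAT half-site pair TTCNNNGAA, in capitals, at positions -192 to -184 counted back from the start. The pattern is palindromic, so that both strands are searched at once, and occurs in 7.02% of the promoters in the table.
Ang4: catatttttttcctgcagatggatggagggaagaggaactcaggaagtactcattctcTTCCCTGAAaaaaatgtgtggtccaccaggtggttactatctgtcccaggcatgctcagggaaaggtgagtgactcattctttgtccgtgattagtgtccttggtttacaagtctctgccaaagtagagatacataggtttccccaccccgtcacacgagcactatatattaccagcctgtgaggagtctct

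*Retnlb* encodes RELMβ, a goblet cell protein that damages the membranes of Gram-negative bacteria and is known as a target of type 2 cytokines. The gene (ENSMUSG00000022650) lies at chr16:48816856-48818892 on the plus strand. Its levels were 53.5, 99.0 and 82.0 FPKM in Zfp90fl/fl and 27.8, 21.5 and 59.5 FPKM in Zfp90ΔIEC. Zfp90ΔIEC replicate 3 reached into the control range, and the other two lay below it. The difference was -1.18 (SE 0.383, 95% interval -2.08 to -0.27), and the unadjusted p of 0.0183 in limma became an adjusted p of 0.243. In bulk tissue, fewer cells of a type and less RNA per cell cannot be told apart. Summed, 9 goblet cell markers were higher in every Zfp90ΔIEC sample, at 2713 to 3639 FPKM beside 2094 to 2531 FPKM in Zfp90fl/fl. Of the 9, 0 were lower and 3 higher without overlap, beside 12.6% and 8.73% of all genes tested. Their part in the level of *Retnlb* was not tested. *Retnla* and *Retnlg*, which encode other RELM proteins, were not above 0.129 FPKM in any sample.

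*Itln1* encodes intelectin 1, a lectin that binds microbial sugars and is secreted by goblet and Paneth cells. The gene (ENSMUSG00000038209, chr1:171518122-171535294, minus strand) was near the detection floor, at 0.912, 0.893 and 0.530 FPKM in Zfp90fl/fl and 0.474, 0.487 and 1.17 FPKM in Zfp90ΔIEC. These levels rest on an estimated 15 to 37 fragments per sample, and the genotypes overlapped. In the fit without the filter the difference was -0.07 (SE 0.185, adjusted p = 0.905). The paralogs *Itln2* and *Itlnb* were looked up by symbol and were not found among the genes listed.

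*Lyz1* and *Lyz2* encode lysozymes, which cut the peptidoglycan of bacterial walls. They lie side by side on the minus strand of chromosome 10, *Lyz2* (ENSMUSG00000069516) at chr10:117277331-117282321 and *Lyz1* (ENSMUSG00000069515) at chr10:117287797-117292868, with 5475 bases between them. The last 130 bases before their RefSeq starts (GRCm38, Lyz1 at chr10:117292869-117292998 and Lyz2 at chr10:117282273-117282402, minus strand) are shown because the pair was measured so differently. They are 92.3% identical, and the 10 bases at which they differ are in capitals.
Lyz1: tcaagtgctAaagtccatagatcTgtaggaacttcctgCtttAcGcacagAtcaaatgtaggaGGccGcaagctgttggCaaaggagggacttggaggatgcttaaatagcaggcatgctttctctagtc
Lyz2: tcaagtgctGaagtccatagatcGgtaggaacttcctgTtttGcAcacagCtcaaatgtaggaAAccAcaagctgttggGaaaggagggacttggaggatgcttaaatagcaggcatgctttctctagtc

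*Lyz2* was measured at 3.40, 4.81 and 3.11 FPKM in Zfp90fl/fl and at 1.66, 1.61 and 1.87 FPKM in Zfp90ΔIEC. The Zfp90ΔIEC samples stayed within a narrow band, and each lay below every control. The difference was -0.80 (SE 0.133, 95% interval -1.11 to -0.48). The unadjusted p was 0.000561 and the adjusted p 0.0782 in limma, just outside the threshold.

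*Lyz1* went the other way in its means, with 0.417, 0.197 and 0.288 FPKM in Zfp90fl/fl and 1.53, 0.221 and 0.765 FPKM in Zfp90ΔIEC. Zfp90ΔIEC replicates 1 and 3 lay above all controls and replicate 2 lay among them. Its difference of 0.44 (SE 0.264, adjusted p = 0.663, fit without the filter) rests on an estimated 7 to 53 fragments per sample. *Lyz1* made up 10.9%, 3.94% and 8.48% of the lysozyme sum in Zfp90fl/fl and 48.0%, 12.0% and 29.0% in Zfp90ΔIEC, so that its share was higher in each Zfp90ΔIEC sample. The transcripts are 96.0% identical over 1262 aligned bases, and 6.22% of the 75-base windows of *Lyz1* occur unchanged in *Lyz2*. Reads could thus be split between them, and how far this changed either value was not tested. The sum of the pair, which does not depend on the split, was 3.82, 5.01 and 3.40 FPKM in Zfp90fl/fl and 3.19, 1.83 and 2.64 FPKM in Zfp90ΔIEC. It was lower in every Zfp90ΔIEC sample, with a difference of -0.52 (SE 0.170, adjusted p = 0.246).

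*Slpi* encodes a secretory leukocyte protease inhibitor, which protects mucosa from neutrophil elastase and is itself bactericidal. The gene (ENSMUSG00000017002) lies at chr2:164354070-164389095 on the minus strand. Its levels were 3.59, 4.66 and 1.37 FPKM in Zfp90fl/fl and 0.437, 0.459 and 0.819 FPKM in Zfp90ΔIEC. The lowest control still lay above the highest Zfp90ΔIEC sample, and the control mean was 5.61-fold the Zfp90ΔIEC mean, the widest ratio between means of the 10 genes. The difference was -1.34 (SE 0.306, 95% interval -2.06 to -0.61), with an unadjusted p of 0.00331 and an adjusted p of 0.128 in limma. Without Zfp90fl/fl replicate 3 it was -1.71 with an adjusted p of 0.0211, the only one of the leave-one-out fits in which any of the 10 genes passed the threshold.

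*Wfdc2*, which lies 173 kb from *Slpi* at chr2:164562413-164568510 on the plus strand (ENSMUSG00000017723), encodes another secreted protein with whey acidic protein domains, made by goblet cells. It was measured at 85.4, 93.9 and 75.2 FPKM in Zfp90fl/fl and 72.6, 75.5 and 79.0 FPKM in Zfp90ΔIEC. The genotypes overlapped, and the difference was -0.16 (SE 0.0877, 95% interval -0.37 to 0.05, adjusted p = 0.460). The proximity to *Slpi* was thus not accompanied by a difference of like size, although the difference between both genes was not tested.

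*Pglyrp1* encodes peptidoglycan recognition protein 1, a bactericidal protein stored in neutrophil granules and also made in epithelia. The gene (ENSMUSG00000030413) lies at chr7:18871331-18890459 on the plus strand. It was measured at 43.7, 47.8 and 48.4 FPKM in Zfp90fl/fl and at 34.5, 31.5 and 36.0 FPKM in Zfp90ΔIEC. Both groups were tight and did not overlap, and the control mean was 1.37-fold the Zfp90ΔIEC mean. The difference was -0.45 (SE 0.0714, 95% interval -0.62 to -0.28). The unadjusted p of 0.00044 and the adjusted p of 0.0687 in limma were the smallest of the 10 genes. *Pglyrp2* was not above 0.163 FPKM in any sample, and *Pglyrp3* and *Pglyrp4* were listed at 0.

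Promoter sequences were available for 9 of the 10 genes, all but *Retnlb*, and those of *Pglyrp1* and *Slpi* are shown since these genes were lower without overlap. Both are the 250 bases before the RefSeq start (GRCm38), at chr7:18884440-18884689 on the plus strand and chr2:164356508-164356757 on the minus strand, and both starts lie within the span that GENCODE gives the gene. Searched on both strands were TATAAA (12.4% of 32851 promoters), the NF-κB consensus (3.90%), TTCNNNNGAA (5.85%), TTCNNNGAA (7.02%) and the ETS core GAGGAAG (10.6%). In *Pglyrp1*, the capitals mark GAGGAAG at positions -113 to -107 and the NF-κB match GGAAAGTCCC at -93 to -84. The latter fits the consensus when read on the opposite strand. Capitals also mark GAGGAAG on the opposite strand at -63 to -57. The matches do not overlap each other. No searched pattern occurs in these windows of *Slpi*, *Lyz1*, *Lyz2*, *Lypd8*, *Itln1* or *Wfdc2*, and *Mptx1* holds TATAAA on the opposite strand 2 times.
Pglyrp1: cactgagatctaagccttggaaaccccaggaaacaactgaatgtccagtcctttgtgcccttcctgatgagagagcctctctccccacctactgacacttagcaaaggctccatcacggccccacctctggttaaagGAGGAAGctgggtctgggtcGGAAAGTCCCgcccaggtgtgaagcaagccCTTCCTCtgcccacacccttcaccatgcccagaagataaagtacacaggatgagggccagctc
Slpi: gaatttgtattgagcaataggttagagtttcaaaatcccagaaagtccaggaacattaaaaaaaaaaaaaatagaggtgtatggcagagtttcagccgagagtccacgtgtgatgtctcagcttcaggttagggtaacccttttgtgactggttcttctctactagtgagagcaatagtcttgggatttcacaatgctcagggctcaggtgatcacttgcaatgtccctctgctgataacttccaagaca

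**Figure D2:**
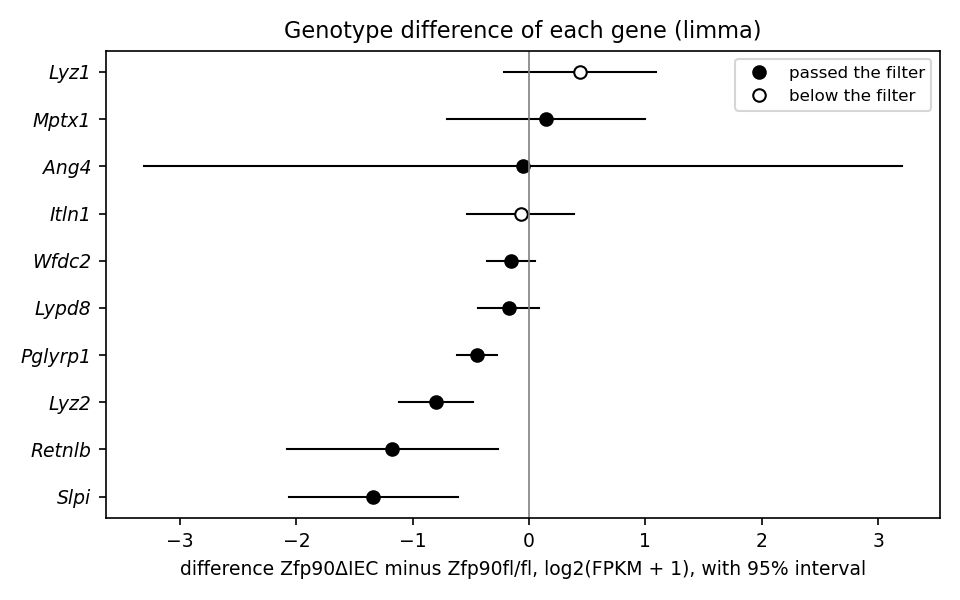
Difference of each gene between genotypes on the log2(FPKM + 1) scale (x axis), as points with 95% intervals from limma, open for the genes below the filter. The intervals of *Slpi*, *Retnlb*, *Lyz2* and *Pglyrp1* lie below 0, and that of *Ang4* runs from -3.31 to 3.20.

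*Lyz2*, *Slpi* and *Pglyrp1* are also expressed by leukocytes, so their levels are set beside leukocyte markers. The sum of 9 macrophage markers was 4.45 to 5.72 FPKM in Zfp90fl/fl and 1.86 to 3.17 FPKM in Zfp90ΔIEC. Of the 9, 8 were lower in mean, 5 lower without overlap and *Ms4a7* higher without overlap. Without overlap, 12.6% of all genes tested were lower and 8.73% higher, but of the 9 only *Cd68* and *C1qa* passed the filter. The 5 lower without overlap and *Ms4a7* all lay below it, so these shares are not a like background for them. *Csf1r*, *Ms4a7*, *Cd68* and *C1qa* are named after their values were seen. *Csf1r*, the receptor that macrophages need for survival, ranged from 0.385 to 0.603 FPKM in Zfp90fl/fl and from 0.0770 to 0.112 FPKM in Zfp90ΔIEC. *Cd68* and *C1qa*, which macrophages also express, overlapped between genotypes. The 9 neutrophil markers were dominated by *Ly6g* (21.9 to 44.7 FPKM) and overlapped in their sum, at 25.2 to 47.2 FPKM and 21.9 to 33.0 FPKM. Without *Ly6g*, the other 8 summed to 1.23 to 2.47 FPKM in Zfp90fl/fl and to at most 0.0300 FPKM in Zfp90ΔIEC, and *S100a8*, *S100a9* and *Cxcr2* were listed at 0 in all 3 Zfp90ΔIEC samples, *Ngp* in all 6 samples. The 5 B and plasma cell markers summed to 2.15 to 3.11 FPKM and 0.385 to 0.682 FPKM, while the T cell sum overlapped. The sums of macrophage markers, of B and plasma cell markers and of neutrophil markers without *Ly6g* were thus lower in the same samples as the 3 genes. The part of these markers in the 3 genes' levels was not tested. In the Zfp90ΔIEC samples *Pglyrp1* was at 31.5 to 36.0 FPKM and *Ly6g* at 21.9 to 32.9 FPKM. Which cells *Pglyrp1* came from was not tested.

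**Figure D3:**
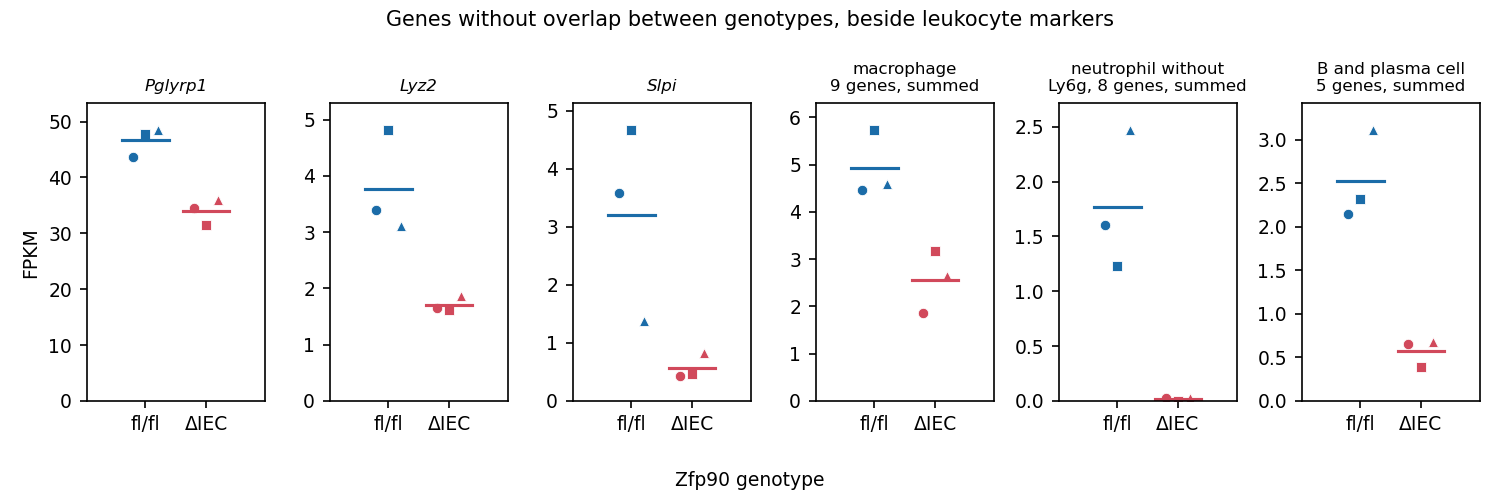
FPKM of *Pglyrp1*, *Lyz2* and *Slpi* and summed FPKM of macrophage, neutrophil (without *Ly6g*) and B and plasma cell markers in each sample, by genotype, on separate linear axes from 0, with symbols for replicates (circle 1, square 2, triangle 3) and bars for means. In all 6 panels each Zfp90ΔIEC sample lies below each Zfp90fl/fl sample, but the genes were chosen for this. The T cell sum, which overlapped, is not shown. *Slpi* passed the filter only through Zfp90fl/fl and so had to separate, and with *Ly6g* the neutrophil sums overlap.

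Paneth cells are a main source of *Lyz1* in the small intestine and are normally rare in the mouse colon. Of the 5 Paneth markers, 4 were in the files. *Defa30* and *Ang5* were listed at 0 in all samples and *Defa24* was above 0 in a single sample, at 0.0855 FPKM. *Mmp7*, a matrix protease that activates defensins, ranged from 1.13 to 1.84 FPKM in Zfp90fl/fl and from 0.534 to 0.925 FPKM in Zfp90ΔIEC. It passed the filter only through Zfp90fl/fl. The source of *Lyz1* in these samples was not tested.

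A pattern by sample was noticed after the values were seen. Within Zfp90ΔIEC, replicate 3 was the highest of the 3 samples for 9 of the 10 genes, the exception being *Lyz1*, and for all 8 that passed the filter, beside 27.8% of all genes tested. Within Zfp90fl/fl, replicate 2 was the highest for 6 of the 10, beside 37.5% of all genes tested. Relative to the mean of the own genotype on the log2 scale, Zfp90ΔIEC replicate 3 stood 2.53 higher for *Ang4*, 0.89 for *Mptx1*, 0.83 for *Retnlb* and 0.24 for *Lypd8*, but only 0.08 for *Lyz2* and for *Pglyrp1*. Its estimated depth of 27.9 M fragments lay between those of the other two Zfp90ΔIEC samples. Without it, the differences were -1.32 for *Ang4*, -1.59 for *Retnlb*, -0.30 for *Lypd8* and -0.30 for *Mptx1*, and none of these passed an adjusted p of 0.05.

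**Figure D4:**
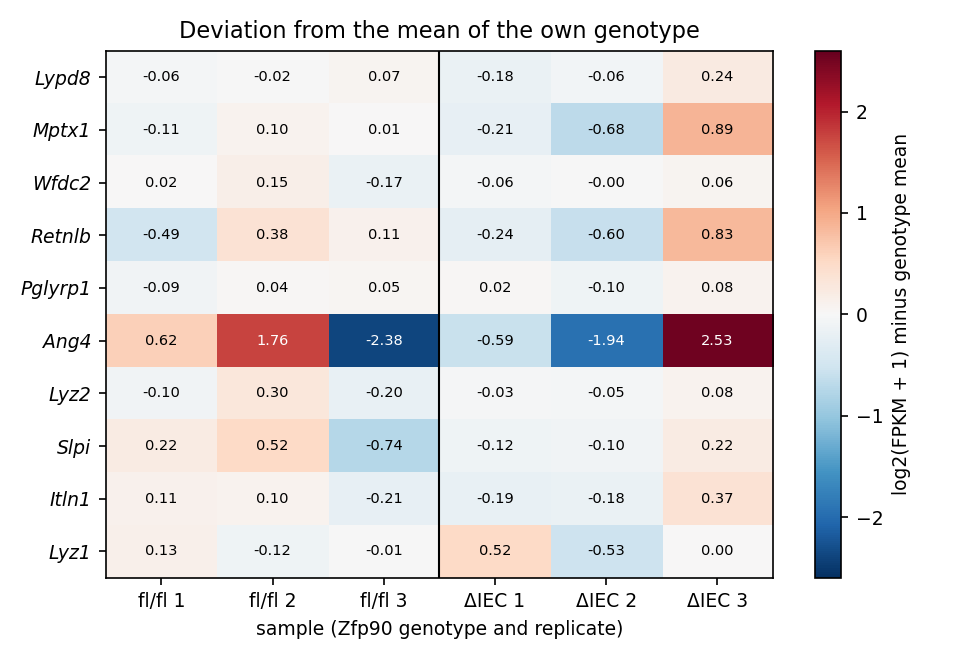
Heat map of log2(FPKM + 1) minus the mean of the own genotype, with the 10 genes in rows, the 6 samples in columns and a colour scale from blue (below the mean) to red (above it). The column of Zfp90ΔIEC replicate 3 is positive throughout, from 0.00 for *Lyz1* to 2.53 for *Ang4*.

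The 10 genes did not share a single profile over the 6 samples. With log2 values standardised over samples, the most alike were *Lyz2* and *Slpi*, with a root mean square difference of 0.274, then *Slpi* and *Wfdc2* (0.358), *Lyz2* and *Pglyrp1* (0.366) and *Ang4* and *Itln1* (0.380), all over n = 6 samples from the same libraries. Among 6656 other genes whose mean reached 5 FPKM, the profile nearest to *Lypd8* was that of *Cd74*, the invariant chain of MHC class II, at 0.0973, with 13.9, 15.8 and 28.7 FPKM in Zfp90fl/fl and 2.24, 6.20 and 26.9 FPKM in Zfp90ΔIEC. Nearest to *Lyz2* was *Nfkbiz*, an NF-κB cofactor, at 0.107, nearest to *Slpi* was *Asap2* (0.113), and nearest to *Pglyrp1* was the ribosomal protein gene *Rps21* (0.0753). *Spred2* lay nearest to *Ang4* (0.125), *Snx2* to *Retnlb* (0.132), *Nudt4* to *Mptx1* (0.219) and *Sh3bgrl3* to *Wfdc2* (0.177). The likeness is in shape, not in size: *Spred2* ranged only from 13.5 to 15.1 FPKM. Each is the closest of 6656 genes over only 6 samples, so a close match says little. No likeness was tested.

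Other defence and barrier genes, not all of them secreted, were read from a list of 52, of which 50 were in the files and 31 passed the filter. None passed an adjusted p of 0.05 (0 of 31, limma), and at an unadjusted p under 0.05, 10 were lower and 5 higher in Zfp90ΔIEC, beside 8.09% and 6.56% of all genes tested. The genotypes did not overlap for 14 of the 31, 9 lower and 5 higher, beside 12.6% lower and 8.73% higher of all genes tested, and the median difference was -0.11, beside -0.02 over all genes. Among the lower genes in both counts, *Saa3*, *Mmp7* and *Nod2*, which encodes a sensor of peptidoglycan, passed the filter only through Zfp90fl/fl, so they had to differ. By size, the first was *Saa3*, an acute-phase serum amyloid, at 1.55, 1.49 and 2.42 FPKM in Zfp90fl/fl and 0.249, 0.360 and 0.848 FPKM in Zfp90ΔIEC. Its difference was -0.93 (SE 0.184, adjusted p = 0.0995). *Lpo*, which encodes the secreted lactoperoxidase, was at 9.94, 10.3 and 9.72 FPKM in Zfp90fl/fl and 22.4, 24.1 and 12.1 FPKM in Zfp90ΔIEC, a difference of 0.85 (SE 0.232, adjusted p = 0.177). *Gbp2*, an interferon-induced GTPase, and *Saa1*, a serum amyloid, had differences of -0.84 (adjusted p = 0.407) and -0.78 (adjusted p = 0.392), and both overlapped between genotypes.

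Further genes of that list were picked after their values were seen. The receptor that carries IgA into the lumen, *Pigr*, was measured at 1661, 1633 and 1582 FPKM in Zfp90fl/fl and 1138, 1045 and 1274 FPKM in Zfp90ΔIEC, a difference of -0.50 (SE 0.0808, adjusted p = 0.0690). *Pla2g2a*, a bactericidal phospholipase, was at 3.56, 3.70 and 4.55 FPKM in Zfp90fl/fl and 1.92, 1.83 and 2.29 FPKM in Zfp90ΔIEC, with a difference of -0.71 (SE 0.101) and an adjusted p of 0.0632, the smallest of the list. *Dmbt1*, a scavenger receptor that aggregates bacteria, and *Ccl28*, a chemokine with antimicrobial activity, were also lower without overlap, by -0.58 (adjusted p = 0.131) and -0.69 (adjusted p = 0.134). On the other side were goblet cell and colonocyte products without overlap, among them the lectin-like *Zg16* at 0.52 (adjusted p = 0.117), the peptide hormone precursor *Guca2a* at 0.49 (adjusted p = 0.134) and the gel-forming mucin *Muc2* at 0.57 (adjusted p = 0.368).

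**Figure D5:**
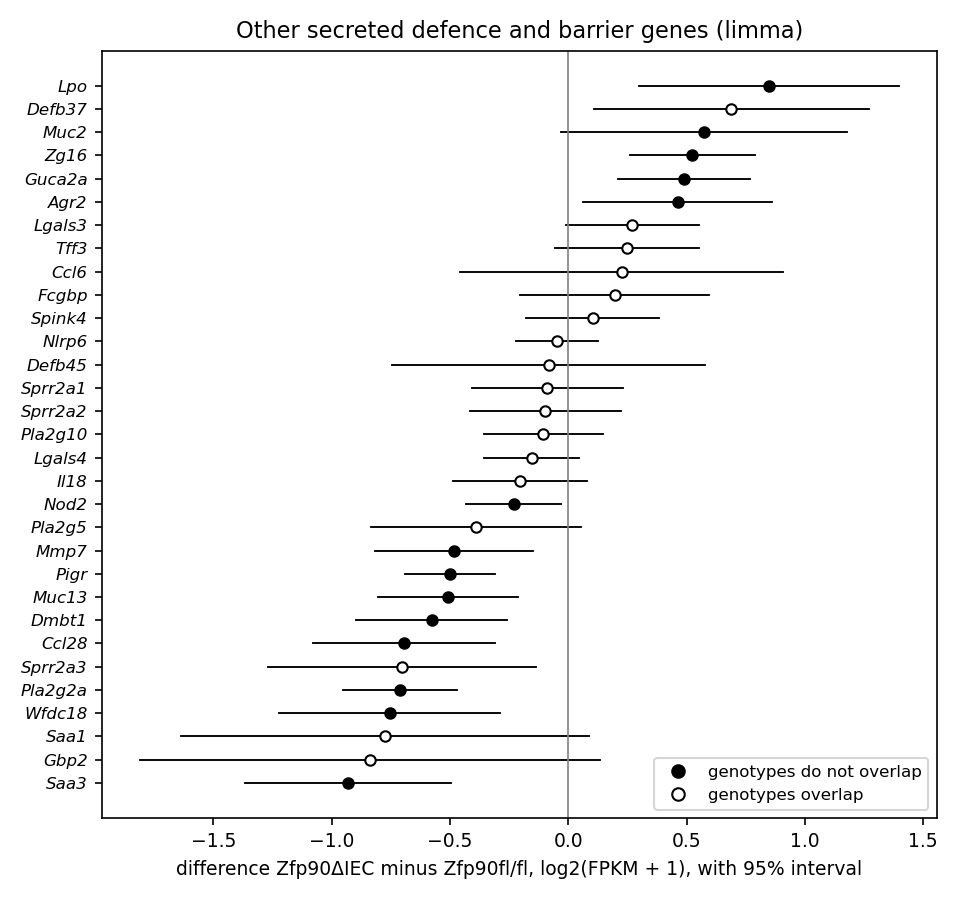
Difference between genotypes on the log2(FPKM + 1) scale (x axis) with 95% intervals from limma for the 31 other defence and barrier genes that passed the filter, filled where the genotypes do not overlap. The points run from -0.93 for *Saa3* to 0.85 for *Lpo*, with 9 filled points below 0 and 5 above.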

How the data were processed

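The members and the gene lists were chosen with earlier results of these data known. Epithelial cells of the colon were isolated with EDTA and DTT and sequenced by the authors, who deposited 1 file of gene values for each sample. The files name no unit, and the study's methods and the values make it FPKM. The study's methods name TopHat, Cuffdiff and a human genome, whereas the submitters' processing notes name FastQC, STAR 2.5, Cuffnorm, DESeq 1.22.1 and mm9, so how the deposited FPKM were made is not settled. The files hold mouse gene identifiers, 52403 of 52550 of which had a symbol in GENCODE M21 (GRCm38). Coordinates come from that annotation and promoters from RefSeq (GRCm38), not from the files. A value listed at 0 may be a failed estimate.

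From the FPKM, log2(FPKM + 1) was tested over the 11564 genes that reached 1 FPKM in 3 or more of 6 samples, by limma 3.58.1 (empirical Bayes with trend) in R 4.3.3, two-sided, with Benjamini-Hochberg adjustment and a threshold of 0.05. No member was adjusted over the members alone. Genes below the filter took their values from a fit over genes above 0 in at least 1 sample. The test was tested on simulated data. Named with values were the 10 members, their close paralogs, the 4 other defence genes of largest absolute difference among those tested and, for each member tested, the nearest profiles. Other names were mostly picked after values were seen, also where this is not said. Shared windows of 75 bases were counted over the GENCODE transcripts, and transcripts were aligned with Biopython 1.88. Other steps used pandas 2.3.3 and numpy 2.4.6 in Python 3.11.15, and plots used matplotlib 3.10.9. Alternatives were median ratio scaling, quantile normalization, a block for replicate number, a pseudocount of 0.1, no filter, a threshold of 0.01, leaving out each sample and, chosen after seeing the data, a filter at 0.1 FPKM and the sum of both lysozymes.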

Additional observations from a re-analysis of the deposited data

How the results depend on the processing

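With 3 samples a group and no stated depth, low members (*Slpi*, *Lyz1*, *Lyz2*, *Itln1*) rest on few fragments, and a difference that misses the threshold is not shown to be absent. Over all genes the count past the threshold was 23, and it was 13 with a pseudocount of 0.1, 15 without the filter, 47 with the replicate block, 6 at an adjusted p under 0.01 and 10 to 21 when each sample was left out, with 10 without Zfp90fl/fl replicate 2. These counts do not say which genes passed, and the cause of their differences was not tested. The count of the 10 defence genes past the threshold was 0 under every alternative except without Zfp90fl/fl replicate 3 (range 0 to 1), where it was *Slpi*. Over all alternatives, *Slpi* ran from -2.18 to -1.08 (adjusted p 0.0211 to 0.317), *Lyz2* from -1.07 to -0.52 (0.0732 to 0.246, the -0.52 being the sum with *Lyz1*), *Retnlb* from -1.59 to -0.88 (0.0992 to 0.474) and *Pglyrp1* from -0.49 to -0.39 (0.0729 to 0.207). Of 119 alternative values for single genes, 7 changed sign, all on leaving out a sample. The lowest and highest values on leaving out a sample were -1.32 and 0.92 for *Ang4*, -0.30 and 0.49 for *Mptx1* and -0.26 and 0.02 for *Itln1*. *Ang4* was above 0 without Zfp90fl/fl replicate 1 (0.25) or 2 (0.83) and without Zfp90ΔIEC replicate 1 (0.24) or 2 (0.92), *Mptx1* was below 0 without Zfp90ΔIEC replicate 3, and *Itln1* was above 0 without Zfp90ΔIEC replicate 1 (0.0222) or 2 (0.0156). Of the other defence and barrier genes, 0 passed in the main fit and 4 with the replicate block (*Pla2g2a*, *Dmbt1* and *Saa3* lower, *Guca2a* higher). *Lpo* passed without Zfp90ΔIEC replicate 3 (1.14, adjusted p = 0.0107 in limma), and on leaving out a sample the count ranged from 0 to 1. Deviations of same-numbered samples correlated at 0.194, 0.110 and 0.0782 for numbers 1, 2 and 3. Every sample correlated best with its own number, a hint from the data and not from the design, and the numbers were not taken as pairs. The median over all genes shifted from -0.02 to -0.01 with quantile normalization and to -0.0032 with median ratio scaling.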

Other observations

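Cytokines and receptors that are known to induce these defence genes were read from a list of 25, of which 14 passed the filter. None passed an adjusted p of 0.05 (0 of 14, limma), beside 0.199% of all genes tested. At an unadjusted p under 0.05, 4 were lower and 0 higher in Zfp90ΔIEC, beside 8.09% and 6.56% of all genes. The genes named from this list were picked after their values were seen. *Il4ra*, the receptor subunit shared by IL-4 and IL-13, was at 5.76, 7.19 and 7.90 FPKM in Zfp90fl/fl and 3.52, 4.36 and 4.03 FPKM in Zfp90ΔIEC, a difference of -0.67 (SE 0.116, adjusted p = 0.0834). *Nfkbiz*, an NF-κB cofactor induced by IL-17, was at 40.3, 46.2 and 40.5 FPKM in Zfp90fl/fl and 30.1, 30.3 and 31.5 FPKM in Zfp90ΔIEC, a difference of -0.45 (SE 0.0687, adjusted p = 0.0664). *Stat3* and *Il22ra1*, through which IL-22 acts, had differences of -0.33 (adjusted p = 0.205) and -0.22 (adjusted p = 0.210). All 4 were lower in each Zfp90ΔIEC sample than in each Zfp90fl/fl sample, which held for 12.6% of all genes tested. *Stat6*, which acts below *Il4ra*, overlapped, at -0.05 (adjusted p = 0.718), as did the flagellin receptor gene *Tlr5* at 0.07 (adjusted p = 0.717). The ligand genes *Il9*, *Il13* and *Il25* were listed at 0 in all 6 samples, and *Il4* was not above 0.183 FPKM. *Il17a*, below the filter, was at 0.628, 0.826 and 0.787 FPKM in Zfp90fl/fl and at 0.0939, 0.0894 and 0 FPKM in Zfp90ΔIEC, a difference of -0.72 (SE 0.0642, adjusted p = 0.0589, limma fit without the filter).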
